A study of Mus musculus with 6 samples.

Results

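The genes examined here were 10 components of the circadian clock: the period genes *Per1*, *Per2* and *Per3*, the cryptochrome genes *Cry1* and *Cry2*, *Clock*, the PAR bZIP factor genes *Dbp*, *Tef* and *Hlf*, and *Ciart*. They were picked by gene symbol, 10 of the 56748 genes in the count table, to see whether clock phase was shifted between the 2 sets of cultures. The list was drawn up with earlier results of these data known. RNA sequencing was performed on osteocyte cultures from C57BL/6 mice aged 7 weeks, prepared from limb bones by flushing out the marrow and digesting bone fragments serially with trypsin, collagenase and EDTA. After 7 days in culture, every sample received lipopolysaccharide (LPS, a bacterial cell wall component) at 10 ng/mL for 3 h and then aluminum hydroxide, a particulate inflammasome activator, at 20 µg/mL for a further 3 h. The 3 libraries of 1 group were labelled WT, from C57BL/6J mice per the paper, with no floxed *Gsdmd* or Cre stated. The 3 libraries of the other were labelled cKO, for a conditional deletion of *Gsdmd*, the pore-forming effector of pyroptosis, in which floxed *Gsdmd* (Gsdmd fl/fl) is cut by a Cre recombinase driven by the *Dmp1* promoter, active in osteocytes and late osteoblasts. No unstimulated culture, no second time point and no hour of harvest was given for these libraries, so no phase could be estimated from them and only levels at 1 time after stimulation were compared.

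The mammalian clock is a transcriptional loop present in most cells, bone cells included. CLOCK or its relative NPAS2 pairs with BMAL1 (gene *Arntl* in the deposited table) and switches on genes that carry E-box elements, among them the *Per* and *Cry* genes, whose proteins return to the nucleus and repress the same pair. A second loop, through the REV-ERB repressors (*Nr1d1*, *Nr1d2*) and the ROR activators, drives *Arntl* in the opposite phase, and the PAR bZIP factors pass the rhythm to output genes through D-box elements. Serum, glucocorticoids, cyclic AMP and inflammatory signals can reset the clock of cultured cells, and *Per1* and *Per2* respond to several of these within hours.

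The elements named above could be read in the promoters of the members, and short windows around them are shown because they are the elements through which the loop's proteins act. The RefSeq promoter table (GRCm38.p6) held 9 of the 10 members, with 13 promoters of 300 bases, 250 before and 50 after the start of transcription, and each of the 13 matched the GRCm39 genome once. *Per2* was the member without an entry. On both strands a script searched for the E-box CACGTG, the variant E′-box CACGTT, the D-box TTATGTAA or TTACGTAA, the cyclic AMP response element TGACGTCA and the ROR core TAGGTCA. The windows below are written 5′ to 3′ on the strand of the gene, in GRCm39 coordinates with the features of the GENCODE annotation, and capitals mark the matched element (AACGTG is the E′-box read from the other strand).
Per1, chr11:68989597-68989626, plus strand, in an exon of *Per1*: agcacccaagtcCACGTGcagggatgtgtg
Per3, chr4:151129272-151129335, minus strand, upstream of *Per3* in an exon of the noncoding gene *Gm69444*: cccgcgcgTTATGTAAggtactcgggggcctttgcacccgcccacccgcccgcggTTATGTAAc
Cry1, chr10:85020971-85021000, minus strand, in an exon of *Cry1*: agaAACGTGaggtgccggtggtCACGTGgg
Cry2, chr2:92264563-92264592, minus strand, intergenic: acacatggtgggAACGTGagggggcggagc
Tef, chr15:81686735-81686764, plus strand, in an exon of *Tef*: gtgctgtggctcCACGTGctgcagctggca
Tef, second promoter, chr15:81695465-81695494, plus strand, in an exon of *Gm17597*: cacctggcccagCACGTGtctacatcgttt
Hlf, chr11:90281744-90281773, minus strand, in an exon of *Hlf*: atcggcgcgcggtgcgggcccTGACGTCAc
Ciart, chr3:95789641-95789670, minus strand, in an exon of *Ciart*: tctgcatctagagtCACGTGttgccggtaa
Ciart, chr3:95789576-95789605, minus strand, in an intron of *Ciart*: ggggaggCACGTGcagaaccgCACGTGtct

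An E-box stood in 5 of the 13 member promoters (those of *Per1*, *Cry1* and *Ciart* and both of *Tef*), and 7.15% of 32851 mouse promoters of the same length held one. The E′-box was in 2 of the 13 (*Cry1* and *Cry2*) and in 4.68% of all promoters, the D-box in 1 of the 13 (*Per3*, with 2 copies) and in 1.06%, and the cyclic AMP response element in 1 of the 13 (*Hlf*) and in 1.79%. The ROR core was in 2.61% of all promoters and in no member's promoter. *Per1* and *Tef* each had 2 promoters and *Clock* had 3, so the promoters are not independent. *Clock* and *Dbp* held none of these letters in these windows. Such a match describes the sequence only, and elements farther from the start or in introns were not searched.

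Libraries held between 39566835 and 49734046 counts, and 17146 genes passed the filter on low counts, all 10 members among them. *Gsdmd* went against its label: its counts were 609, 699 and 549 in the WT libraries and 885, 937 and 1045 in the libraries labelled cKO (log2 fold change 0.69, adjusted p = 2.27e-06, quasi-likelihood test of edgeR, Benjamini-Hochberg adjustment), so directions below are those of the libraries so labelled. The paper describes the floxed part of *Gsdmd* as its critical exons. Counts over the whole gene do not separate these exons from the others, so they do not measure the deletion. All 16 macrophage markers of a list of 16 were higher in the libraries labelled cKO, with a summed level of 7212 to 7553 CPM (counts scaled to a common library total) against 1268 to 1418 CPM. Of 7 osteocyte markers, *Pdpn* (225.5, 240.4 and 235.4 CPM in WT, 195.3, 194.7 and 188.9 CPM in cKO) and *Fam20c* (76.2, 73.9 and 70.2 CPM in WT, 96.0, 104.8 and 99.96 CPM in cKO) were well expressed. The other 5 had too few counts to be tested, and of the defining markers *Sost* was at 0 in all 6 libraries and *Dmp1* had at most 6 counts. Osteoblast markers summed to 13605 to 15441 CPM in WT and 9080 to 9297 CPM in cKO (2 higher and 4 lower of 6 tested). That sum was mostly *Spp1* and *Col1a1*, both lower, whereas *Alpl* and *Ibsp* were higher. The defining osteoblast marker *Bglap* had at most 5 counts in a library. Chondrocyte markers summed to 1962 to 2173 and 2924 to 3112 CPM (5 higher and 2 lower of 7), and endothelial markers to 8.30 to 9.38 and 7.64 to 8.58 CPM (1 higher and 4 lower of 6). The defining chondrocyte marker *Col2a1* was lower (means of 1428 CPM in WT and 798 CPM in cKO), while *Comp* was higher (567 and 2117 CPM). Among the endothelial markers *Kdr* was higher, while *Pecam1*, *Cdh5*, *Tek* and *Emcn* were lower, so the similar sums conceal opposite changes. None of 8 cell cycle genes passed edgeR's test or DESeq2 (0 of 8, with 2 at an unadjusted p below 0.05), although 1 was lower with no filter on low counts, without WT replicate 1 or without cKO replicate 2, and 1 was higher without WT replicate 3. *Xist* had at most 4 counts in any WT library and at least 44817 in any cKO library, whereas the 4 Y-linked genes tested were at 0 in every cKO library, so the sex of the mice cannot be told apart from the label. In bulk RNA, fewer cells of a type and less RNA per cell cannot be told apart either, and the part that macrophage content or sex had in any value below was not tested. The labels do not say whether the 3 libraries of a group came from separate mice or cultures, so the p-values measure the spread between these libraries only.

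Most of the clock genes differed by small amounts, and not in one direction. *Per2*, *Per3*, *Cry1*, *Clock* and *Tef* were higher in the libraries labelled cKO (5 of 10, where 20.1% of all tested genes were higher), *Cry2* and *Hlf* were lower (2 of 10, where 19.2% were lower), and *Per1*, *Dbp* and *Ciart* did not pass the test. In either direction 39.3% of all tested genes passed. The 3 libraries of one group did not overlap those of the other in 8 of the 10 members, against 49.2% of all genes. The median size of the log2 fold change was 0.25 over the 10 members and 0.25 over all tested genes, and the signed medians were 0.16 and 0.01. A 2-fold limit left 1 member, *Hlf*, whereas 11.2% of all tested genes passed both the test and this limit. Values per library below are CPM scaled by the trimmed mean of M-values (TMM), in the order of replicates 1, 2 and 3, and fold changes are cKO minus WT on the log2 scale with their standard error (SE).

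**Figure D1:**
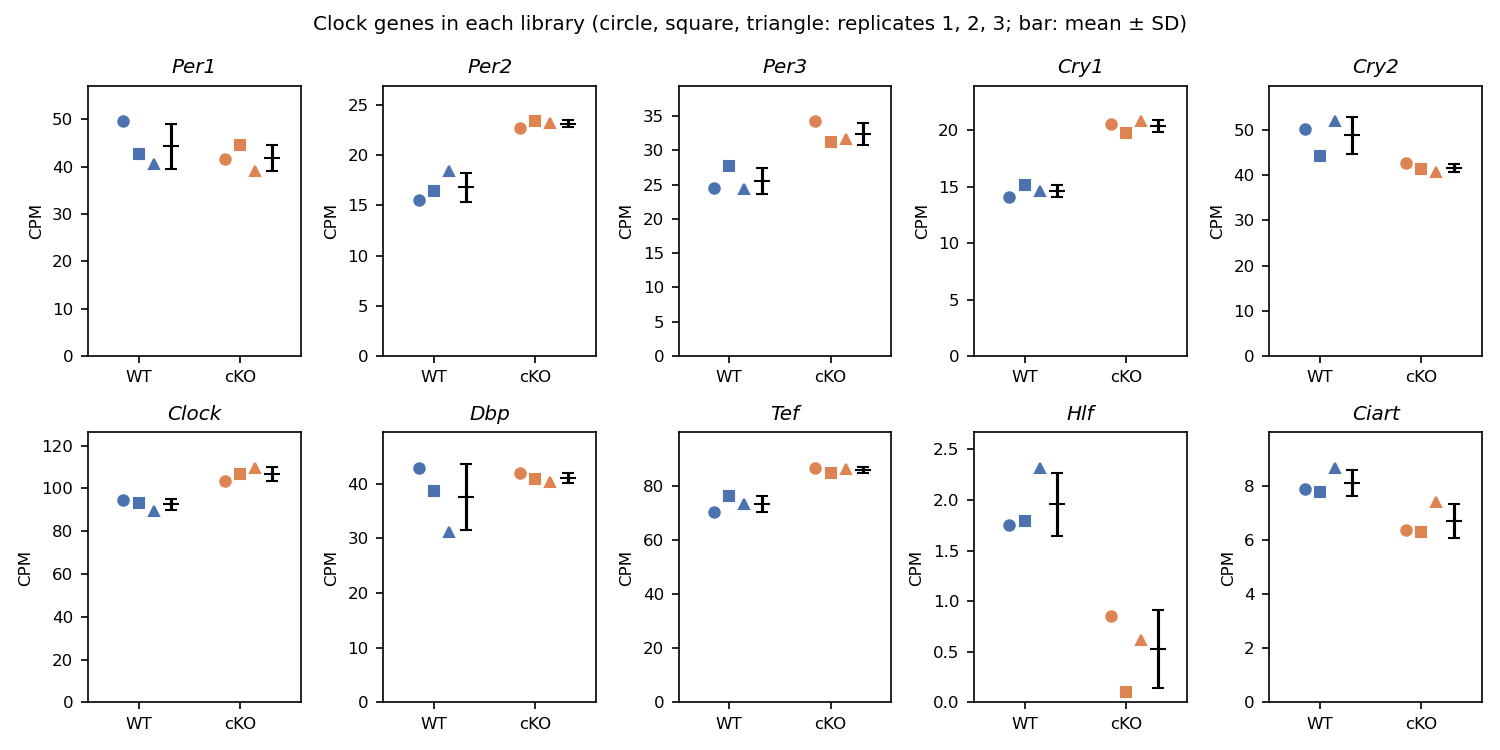
Level of each of the 10 clock genes in every library, in CPM, with the 3 WT and 3 cKO libraries as separate points (circle, square and triangle for replicates 1, 2 and 3) and bars for the mean ± SD. The groups overlap for Per1 and Dbp, and stand apart for the other 8 genes.

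Among the period genes, which encode the repressor proteins that form the negative limb with the cryptochromes, *Per2* and *Per3* rose and *Per1* did not pass. *Per2* (chr1:91343704-91387046 of mm39, minus strand) stood at 15.5, 16.4 and 18.4 CPM in WT and at 22.7, 23.4 and 23.2 CPM in cKO. Every cKO library was above every WT library, and the cKO libraries lay within a narrow range. The difference was 0.46 on the log2 scale (SE 0.083, 95% interval 0.29 to 0.64, adjusted p = 0.000208, edgeR's quasi-likelihood test), a 1.38-fold higher mean. *Per3* (chr4:151088109-151129122, minus strand) had 24.6, 27.7 and 24.4 CPM in WT and 34.2, 31.2 and 31.7 CPM in cKO. Again the groups stood apart, with a difference of 0.34 (SE 0.073, interval 0.19 to 0.50, adjusted p = 0.0011 in the same edgeR test). *Per3* lies wholly inside the much longer gene *Camta1* on the same strand, which had 129 to 354 counts in a library.

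*Per1* (chr11:68986043-69000786, plus strand), the period gene best known as a rapid responder to hormones and cyclic AMP, had 49.6, 42.6 and 40.6 CPM in WT and 41.7, 44.5 and 39.0 CPM in cKO. The groups overlapped, with WT replicate 1 the highest of the 6 and cKO replicate 3 the lowest. The fitted difference was −0.09 (SE 0.074, adjusted p = 0.389, edgeR), and its 95% interval of −0.24 to 0.07 leaves room for a small change either way.

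The 2 cryptochrome genes, whose products are the strongest direct repressors of CLOCK and BMAL1, moved in opposite directions. *Cry1* (chr10:84967564-85020928, minus strand) had 14.1, 15.1 and 14.6 CPM in WT and 20.6, 19.7 and 20.8 CPM in cKO. Both groups were tight, with an SD of 0.514 CPM around a mean of 14.6 in WT and of 0.556 around 20.4 in cKO (n = 3 each), and they did not overlap. The difference was 0.48 (SE 0.081, interval 0.31 to 0.65, adjusted p = 0.000119, edgeR), or 1.40-fold, the largest rise among the 10 members. *Cry2* (chr2:92233991-92264388, minus strand) had 50.3, 44.2 and 52.0 CPM in WT and 42.7, 41.3 and 40.8 CPM in cKO. All cKO libraries were lower, although WT replicate 2 came close to the highest of them. *Cry2* fell by 0.23 on the log2 scale (SE 0.064, interval −0.37 to −0.10, adjusted p = 0.0079, edgeR). A noncoding gene on the opposite strand, *D930015M05Rik*, overlaps *Cry2* but had only 2 to 34 counts.

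*Clock* (chr5:76357715-76452639, minus strand), the activator that is rhythmic in few tissues, had the smallest change that passed. Its level was 94.5, 93.4 and 89.6 CPM in WT and 103.3, 106.8 and 109.7 CPM in cKO. The groups stood apart with an SD of 2.56 CPM in WT and 3.20 CPM in cKO around means of 92.5 and 107. The difference was 0.20 (SE 0.047, interval 0.11 to 0.30, adjusted p = 0.00183, edgeR). A processed pseudogene inside it on the same strand, *Ube2n-ps1*, had 27 to 92 counts.

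The 3 PAR bZIP genes, which encode the D-box activators of clock output, gave 3 different results. *Tef* (chr15:81686622-81711064, plus strand) had 70.6, 76.4 and 73.7 CPM in WT and 87.0, 85.0 and 86.4 CPM in cKO. The groups did not overlap, and *Tef* rose by 0.23 (SE 0.048, interval 0.12 to 0.33, adjusted p = 0.00103, edgeR). *Dbp* (chr7:45354512-45359627, plus strand), among the genes of highest amplitude in most rhythmic tissues, had 42.9, 38.7 and 31.1 CPM in WT and 41.9, 40.9 and 40.2 CPM in cKO. WT replicates 1 and 3 enclosed all 3 cKO libraries, and the coefficient of variation was 16.0% in WT against 2.09% in cKO. The fitted difference was 0.13 (SE 0.087, interval −0.06 to 0.31, adjusted p = 0.284, edgeR). The end of *Dbp* shares 737 bases with *Sphk2* on the other strand, which had 1334 to 2559 counts and was higher in cKO by 0.59 (adjusted p = 6.71e-07, edgeR). The strand setting of the counting was not given in the sources used here, so reads in the shared bases cannot be assigned with certainty.

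*Hlf* (chr11:90227362-90281721, minus strand) showed the largest change and the lowest level. Its raw counts were 79, 89 and 90 in WT and 36, 4 and 28 in cKO, which came to 1.76, 1.79 and 2.32 CPM and to 0.856, 0.101 and 0.616 CPM. All cKO libraries were below all WT libraries, but they differed widely among themselves, with a coefficient of variation of 73.6% against 16.1% in WT. *Hlf* fell by 1.88 on the log2 scale (SE 0.457, interval −2.85 to −0.91, adjusted p = 0.00306, edgeR). Without cKO replicate 2, the library with 4 counts, the difference was −1.41 (adjusted p = 0.00574, edgeR), and without cKO replicate 1 it was −2.40 (adjusted p = 0.00151, edgeR).

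*Ciart* (chr3:95785815-95789563, minus strand), which encodes the repressor CHRONO and carries 3 E-boxes in the windows printed above, had 7.91, 7.80 and 8.68 CPM in WT and 6.37, 6.31 and 7.42 CPM in cKO. The groups did not overlap, but the gap between them was small beside the range within each. The fitted difference was −0.28 (SE 0.128, interval −0.55 to −0.01), with an unadjusted p of 0.0459 and an adjusted p of 0.101 in edgeR's test, so it did not pass. *Ciart* lies within a noncoding gene of the opposite strand, *C920021L13Rik*, with 29 to 71 counts.

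**Figure D2:**
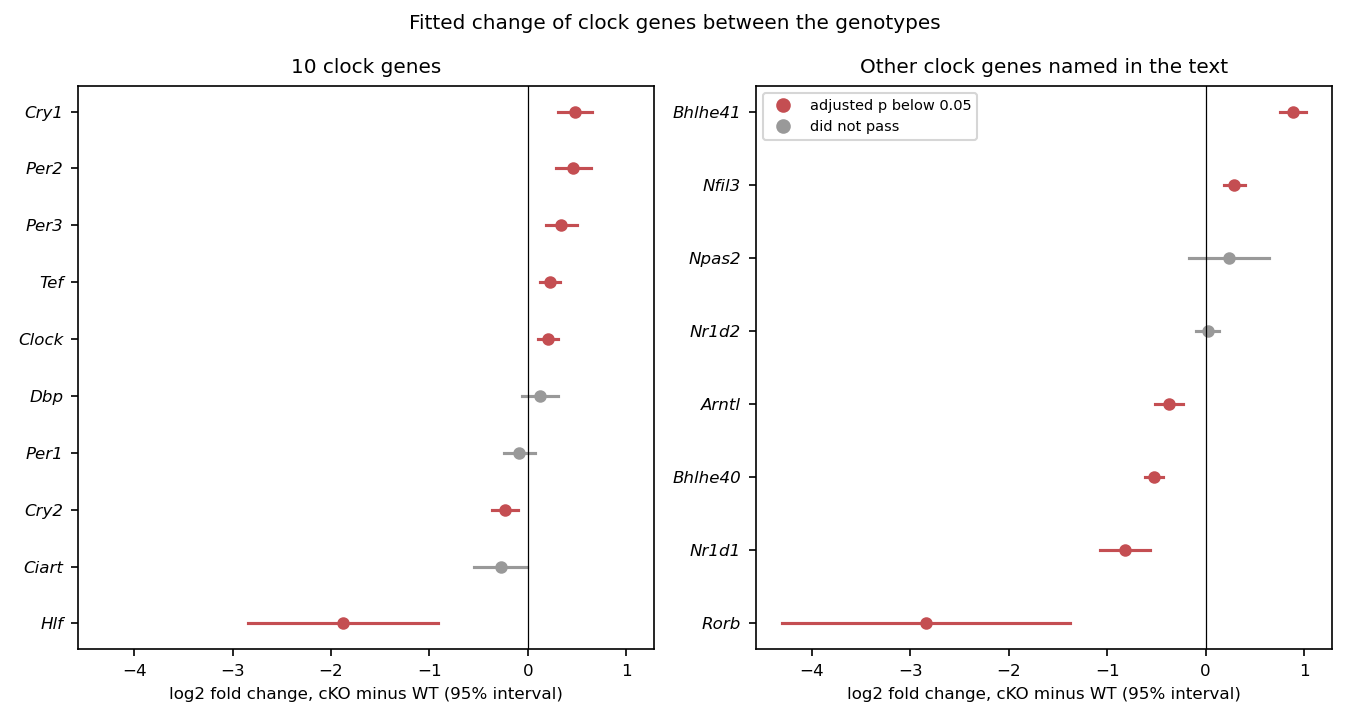
Fitted log2 fold change (cKO minus WT) of the 10 members and of the other clock genes named in the text, with 95% intervals; coloured points passed at an adjusted p below 0.05 and grey points did not. Members run from −1.88 for Hlf to 0.48 for Cry1, and most lie within 0.5 of 0.

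Levels were compared between genes after division by the length of the gene model, as CPM per kb. In WT the order was *Dbp* at 12.5, *Tef* at 9.35, *Per1* at 7.86, *Cry2* at 7.73, *Clock* at 6.74, *Cry1* at 4.37, *Ciart* at 3.60, *Per2* at 2.87, *Per3* at 2.66 and *Hlf* at 0.293 CPM per kb. Neighbours whose ranges over the 3 libraries overlapped were *Per1* with *Cry2* and *Per2* with *Per3*. In cKO the order was *Dbp* at 13.7, *Tef* at 10.9, *Clock* at 7.77, *Per1* at 7.40, *Cry2* at 6.58, *Cry1* at 6.10, *Per2* at 3.95, *Per3* at 3.37, *Ciart* at 2.96 and *Hlf* at 0.0785 CPM per kb. Here *Clock* overlapped *Per1*, and *Per3* overlapped *Ciart*. *Dbp* and *Tef* led and *Hlf* was last in both groups, whereas *Clock* moved from the fifth place to the third and *Ciart* from the seventh to the ninth.

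**Figure D3:**
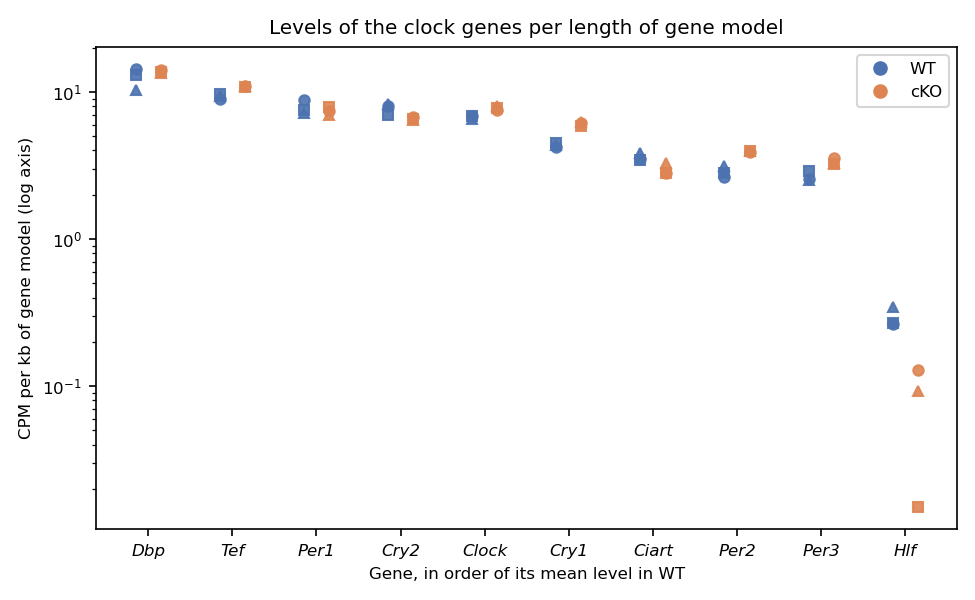
Level of each clock gene in CPM per kb of gene model on a log axis, in order of the WT mean, with each library as a point. Dbp and Tef are highest and Hlf lowest in both groups, and the libraries labelled cKO scatter widely for Hlf.

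Ratios between paired members within a library do not depend on how libraries are scaled, and they were taken after the values above had been seen, as a description with no test. The ratio of *Cry1* to *Cry2*, both per kb, was 0.529, 0.647 and 0.531 in WT and 0.912, 0.904 and 0.964 in cKO. *Cry1* thus came near the level of *Cry2* in every library labelled cKO and in no WT library. The ratio of *Per2* to *Per1* was 0.301, 0.371 and 0.436 in WT and 0.524, 0.506 and 0.574 in cKO, and that of *Per3* to *Per1* was 0.291, 0.381 and 0.352 against 0.482, 0.412 and 0.477. In both the groups stood apart, with the gap smaller than for the cryptochromes. The ratio of *Tef* to *Dbp* was 0.627, 0.751 and 0.902 in WT and 0.789, 0.790 and 0.816 in cKO, so the groups overlapped and the WT libraries spread more. The ratio of *Clock* to its partner gene *Arntl* was 1.28, 1.36 and 1.26 in WT and 1.79, 2.11 and 1.94 in cKO.

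**Figure D4:**
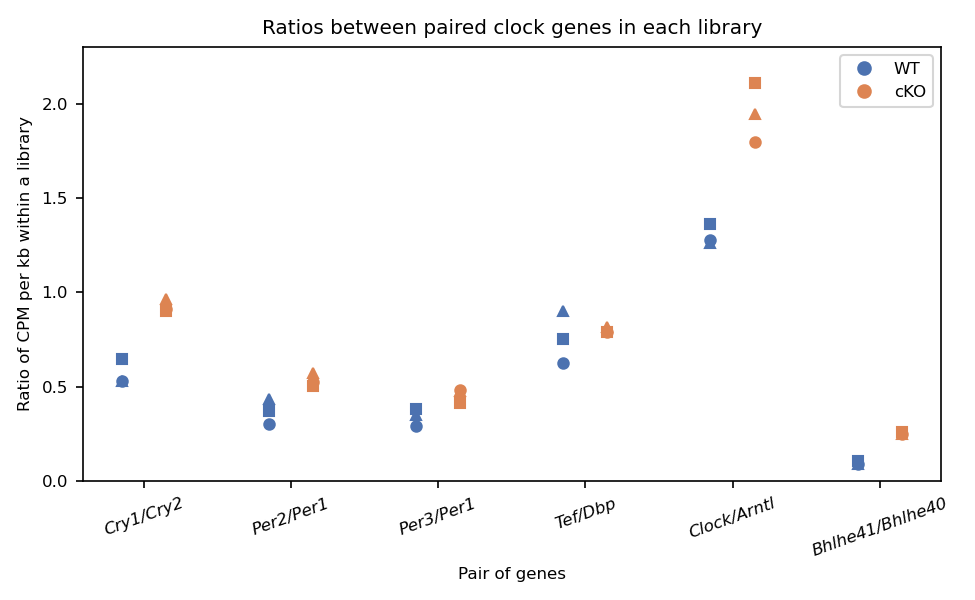
Ratio of the levels, in CPM per kb, of paired clock genes within each library, with a point per library. The Cry1 to Cry2 ratio lies between 0.529 and 0.647 in WT and between 0.904 and 0.964 in cKO, and the Tef to Dbp ratio overlaps.

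The rest of the clock was followed in a list of 20 other clock genes, all of which were tested: 3 were higher in cKO, 8 were lower and 9 did not pass. Over all tested genes, 20.1% were higher and 19.2% lower. The repressors *Bhlhe40* and *Bhlhe41*, basic helix-loop-helix proteins that compete for E-boxes, went opposite ways. *Bhlhe41* stood at 48.8, 51.9 and 44.8 CPM in WT and at 88.6, 96.4 and 84.1 CPM in cKO, a rise of 0.89 (SE 0.062, adjusted p = 2.47e-09, edgeR). *Bhlhe40* stood at 372, 342 and 353 CPM in WT and at 248, 258 and 237 CPM in cKO, and fell by 0.52 (SE 0.044, adjusted p = 2.69e-08, edgeR). Neither overlapped between groups, and both changed more than any of the 5 members that rose. *Nfil3*, the D-box repressor that opposes the PAR bZIP factors, had 50.5, 51.9 and 49.4 CPM in WT and 60.7, 62.7 and 62.6 CPM in cKO (0.29, adjusted p = 0.000119, edgeR). *Rorb* alone passed the 2-fold limit (−2.84, adjusted p = 0.00314, edgeR), on at most 36 counts in a library, and is named because of that limit and not by the rule for named genes.

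In the second loop, *Arntl*, which encodes BMAL1, had 40.6, 37.7 and 38.9 CPM in WT and 31.6, 27.7 and 30.9 CPM in cKO, and fell by 0.38 (SE 0.067, adjusted p = 0.000194, edgeR). *Nr1d1*, which encodes REV-ERBα, the repressor of *Arntl*, had 177, 145 and 109 CPM in WT and 88.5, 84.9 and 71.3 CPM in cKO. All cKO libraries were below all WT libraries, with the WT libraries widely spread, and *Nr1d1* fell by 0.82 (SE 0.119, adjusted p = 2.23e-05, edgeR). Both *Arntl* and its repressor gene were therefore lower in the same libraries. *Nr1d2*, the paralog that shares much of the role of *Nr1d1*, had 98.2, 95.3 and 86.0 CPM in WT and 90.1, 99.3 and 94.3 CPM in cKO. Those groups overlapped, with a difference of 0.02 (SE 0.056, interval −0.10 to 0.14, adjusted p = 0.814, edgeR), and its sign turned without WT replicate 3 (−0.037) or cKO replicate 2 (−0.017). *Npas2*, which can replace *Clock*, had 4.87, 5.14 and 4.66 CPM in WT and 4.47, 7.92 and 4.95 CPM in cKO. Only cKO replicate 2 stood above the rest, and the difference of 0.24 (SE 0.193, adjusted p = 0.368, edgeR) became −0.056 without it.

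To describe direction by arm, the genes were set out in the 2 arms of the loop as usually described, and not by the matches in the promoter windows. Of 9 genes driven mainly through E-boxes (*Per1*, *Per2*, *Per3*, *Dbp*, *Tef*, *Hlf*, *Ciart*, *Nr1d1* and *Nr1d2*), 3 were higher in cKO, 2 were lower and 4 did not pass, with a median log2 fold change of 0.02. Of 5 genes that peak in the opposite or a later phase or hardly cycle (*Arntl*, *Npas2*, *Clock*, *Nfil3* and *Cry1*), 3 were higher, 1 was lower and 1 did not pass, with a median of 0.24. Over all tested genes, 20.1% were higher and 19.2% lower. The member *Cry2* (−0.23) and the repressor genes *Bhlhe40* (−0.52) and *Bhlhe41* (0.89) were placed in neither arm, so these counts and medians leave them out. Neither arm moved as a block. Within the E-box arm, *Per2* and *Per3* were higher while *Nr1d1* and *Hlf* were lower, and in the other arm *Cry1* and *Nfil3* were higher while *Arntl* was lower. The median of the E-box arm was the value of *Nr1d2*, and that of the other arm was the value of *Npas2*. Neither gene passed the test, and the sign of each turned when certain single libraries were left out. The arms were not tested against each other. Genes of an arm need not peak at the same hour, and there was 1 time point, so a shift in phase was not tested.

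**Figure D5:**
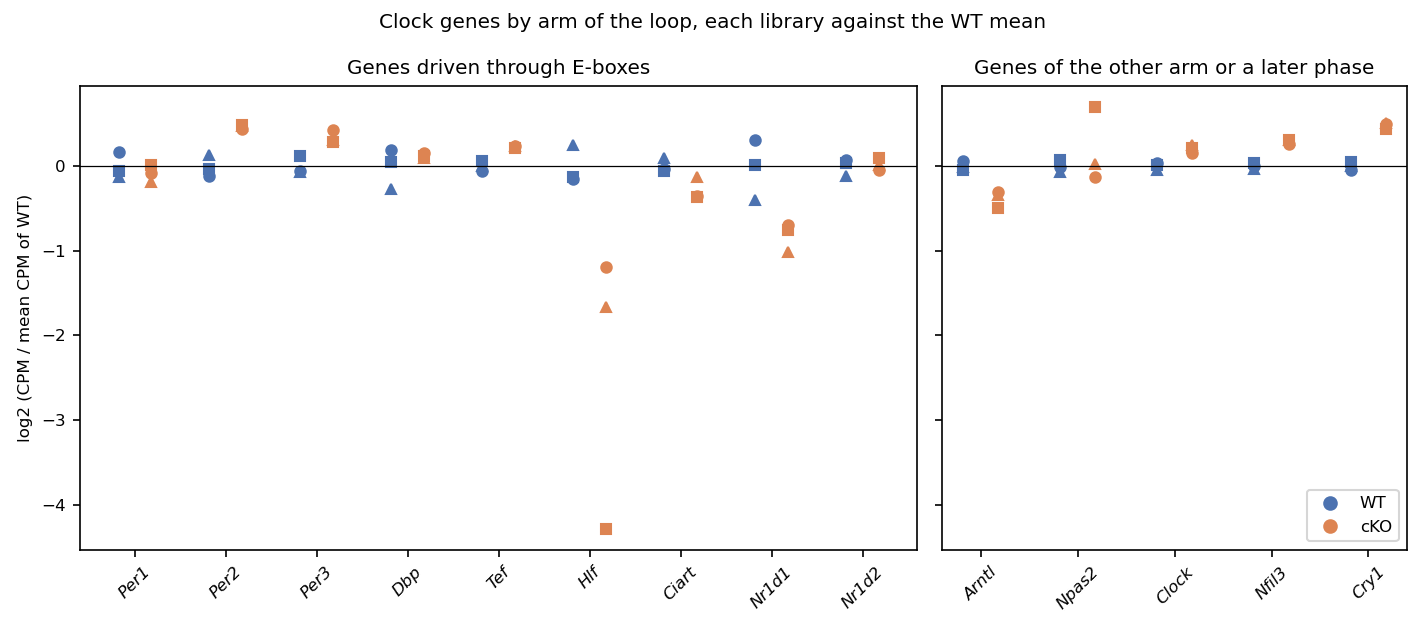
Level of each gene in every library as log2 of CPM over the WT mean, for the genes driven through E-boxes and for those of the opposite or a later phase, with a point per library. Both panels hold genes above and below 0 in the libraries labelled cKO, and Hlf reaches lowest.

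Genes that report on clock output or on signals that reset the clock were also mixed in direction. Of 13 output genes, 5 were higher in cKO and 5 lower, where 20.1% of all tested genes were higher and 19.2% lower. The higher ones included *Por*, the electron donor of cytochromes P450 (0.94, adjusted p = 8.91e-12), *Nampt*, the rate-limiting enzyme of NAD salvage (0.60, adjusted p = 8.6e-08), and *Klf15*, a metabolic transcription factor (0.87, adjusted p = 9.51e-05, all edgeR). The lower ones included the mitophagy receptor gene *Bnip3* (−0.64, adjusted p = 8.54e-10), *Pdk4*, which restrains pyruvate oxidation (−1.10, adjusted p = 2.7e-08), and *Klf10* (−0.56, adjusted p = 7.11e-06, all edgeR). *Pdk4* alone of the 13 passed the 2-fold limit.

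Glucocorticoids are among the strongest resetting signals of cultured cells. Of 10 tested genes of the glucocorticoid response, 2 were higher in cKO, 2 lower and 6 did not pass. These counts are near the shares over all tested genes, 20.1% higher and 19.2% lower. *Tsc22d3*, which encodes the anti-inflammatory mediator GILZ, stood at 15.4, 16.6 and 16.1 CPM in WT and at 29.1, 34.6 and 30.9 CPM in cKO (0.97, adjusted p = 2.27e-08, edgeR), and the kinase gene *Sgk1* was higher by 0.42 (adjusted p = 3.47e-08, edgeR). *Tsc22d3* lies on the X chromosome, and the part that the sex of the mice had in its level was not tested. *Errfi1*, a feedback inhibitor of the EGF receptor, fell by 0.55 (adjusted p = 1.11e-09, edgeR) and *Klf9* by 0.17 (adjusted p = 0.0123, edgeR). The count of lower genes rested on single libraries: it was 5 without WT replicate 3 and 1 without cKO replicate 3, where *Klf9* no longer passed (adjusted p = 0.0584, edgeR).

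Of 14 immediate early and cyclic AMP-responsive genes, the class to which the rapid response of *Per1* belongs, 8 were higher in cKO, 3 lower and 3 did not pass. The shares over all tested genes were 20.1% higher and 19.2% lower. *Fos* stood at 13.0, 13.1 and 13.1 CPM in WT and at 62.9, 66.1 and 63.2 CPM in cKO, a difference of 2.29 (SE 0.061, adjusted p = 5.13e-15, edgeR). *Ier2* was higher by 1.13 (adjusted p = 1.71e-10, edgeR) and *Egr1* by 0.84 (adjusted p = 3.14e-09, edgeR). The other 2 *Egr* genes of the list were lower: *Egr2* fell by 1.62 (adjusted p = 1.61e-08, edgeR) and *Egr3* by 1.01 (adjusted p = 0.00468, edgeR). *Sik1* fell by 0.22 (adjusted p = 0.0333, edgeR), a call lost without any of WT replicates 1 and 2 and cKO replicates 2 and 3 (adjusted p from 0.0707 to 0.151, edgeR). *Per1* itself, as given above, did not pass the test. Without an unstimulated culture or a second time point, a response of *Per1* to stimulation could not be measured. The part that macrophage content had in the level of *Fos* was not tested.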

How the data were processed

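Raw counts per gene, with a gene length in bases, were deposited by the authors for 3 WT and 3 cKO libraries. Per the labels, they sequenced a directional library as paired reads of 150 bases, aligned with HISAT2 (2.0.5) to GRCm39 (mm39) and counted with featureCounts (1.55.0-p3 in the submitters' processing notes). The strand setting, the harvest hour and any batch are not given in the sources used here. Strand, and reads shared by overlapping genes, can therefore affect *Dbp*, *Per3*, *Cry2*, *Clock*, *Ciart* and *Tef*. *Tef* shares 193 bases with the noncoding gene *Gm17597* on the other strand, which had 0 to 4 counts in a library.

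Genes with low counts were removed with filterByExpr, libraries were scaled by TMM, and the groups were compared with the quasi-likelihood test of edgeR 4.0.16 (R 4.3.3) on all 17146 genes that remained, with Benjamini-Hochberg adjustment and a threshold of 0.05. Genotype was the only term. All 6 pairs of libraries within a group differed by more than sampling noise (chi-square per gene 4.81 to 13.9) and were counted separately. Named genes were all members, 7 other clock genes, the 3 with the smallest p-value in each direction of the other-clock, output, glucocorticoid and immediate early lists, and *Gsdmd*; 1 gene that the rule names is not reported here. Members and lists were chosen with earlier results of these data known. Alternatives were other scalings, filters and dispersion settings, DESeq2 1.42.0, limma-voom 3.58.1, halved counts, a replicate block, a 2-fold limit and leaving out each library. The code was tested on simulated data. The depth limits precision mainly for *Hlf* and *Rorb*.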

Additional observations from a re-analysis of the deposited data

How the results depend on the processing

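The 10 members kept their direction and their side of the threshold under each alternative run, except that *Hlf*, with 4 counts in a library, was removed by a minimum of 10 counts in every library, which left 1 member lower. With a log2 fold change of at least 1, the members counted 0 higher and 1 lower, the other clock genes 0 and 1, and all genes 1124 and 796. Leaving out each library in turn gave 5 members higher and 2 lower every time, 3 other clock genes higher and 6 to 9 lower, and 2942 to 3407 genes higher and 2796 to 3375 lower overall. The log2 fold change of *Nr1d2* ran from −0.037 (without WT replicate 3) to 0.055 and was −0.017 without cKO replicate 2, and that of *Npas2* ran from −0.056 (without cKO replicate 2) to 0.39. *Nr1d1* had its highest adjusted p, 0.0479, with robust dispersion in edgeR's test, and *Sik1* lost its call also with scaling by library size only (adjusted p = 0.0613, edgeR). The cause of these changes was not tested. With the replicate number as a block, 5 members were higher and 2 lower, and 3298 and 3098 of all genes. Deviations of same-numbered libraries had correlations of −0.000976, −0.00385 and −0.0178, and no library correlated best with its own number, so the numbers were not taken as pairs. A shift in phase cannot be measured from 1 time point.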

Other observations

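The WT libraries differed among themselves in several clock genes at once, while the libraries labelled cKO were closer together for most of them. WT replicate 1 had the highest level of *Nr1d1* (177 CPM), *Dbp* (42.9 CPM) and *Per1* (49.6 CPM) of the 3 WT libraries and the lowest of *Per2* (15.5 CPM) and *Cry1* (14.1 CPM). WT replicate 3 had the lowest *Nr1d1* (109 CPM), *Dbp* (31.1 CPM), *Per1* (40.6 CPM) and *Nr1d2* (86.0 CPM) and the highest *Per2* (18.4 CPM) and *Hlf* (2.32 CPM). WT replicate 3 also took part in the 2 library pairs with the largest chi-square per gene over all tested genes, 12.0 and 13.9. Its difference from the other WT libraries was not confined to clock genes. *Mt1*, from the glucocorticoid list, had 1001, 1110 and 576 CPM in WT and 758, 744 and 728 CPM in cKO. The ratio of *Dbp* to *Nr1d1*, per kb, varied less within WT (0.249, 0.275 and 0.293) than either gene did, and was 0.487, 0.495 and 0.580 in cKO. The ratio of *Nr1d2* to *Nr1d1* was 0.315, 0.375 and 0.449 in WT and 0.579, 0.665 and 0.752 in cKO, and that of *Bhlhe41* to *Bhlhe40* was 0.0918, 0.106 and 0.0888 against 0.250, 0.262 and 0.249. These values were picked out after they had been seen, and no test was made on them.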
